A study of Homo sapiens with 8 samples.

Results

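The genes described here are 10 human genes of the contractile and actin-binding machinery: the transgelins TAGLN and TAGLN2, the calponins CNN1 and CNN2, the tropomyosins TPM1 and TPM2, the myosin regulatory light chains MYL7 and MYL9, the myosin-binding protein gene MYBPH and the smooth muscle actin gene ACTA2. They were taken by symbol from the 58302 gene IDs counted, and they had been picked with their difference between postconfluent and subconfluent cells in view, so that difference is given below as a description without a test. RNA was sequenced from Caco-2/15 cells, a human colon cancer line that takes on traits of absorptive intestinal cells after its cultures close. Z2flag cells carry a heterozygous Flag epitope tag on H2AFV, the gene of histone variant H2A.Z.2, and Z1flag cells carry it on H2AFZ, the gene of H2A.Z.1. Both were made by CRISPR-Cas9 editing, and untagged cells are not among the libraries analysed here. Each line was harvested 7 days postconfluent (Pc) and subconfluent (Sc), giving 4 groups of 2 libraries: Z2flag Pc, Z1flag Pc, Z2flag Sc and Z1flag Sc. The labels do not say whether a line is 1 clone, so the tagged gene and any other difference between the lines cannot be told apart.

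Actin filaments slide past bipolar myosin filaments to generate tension, and in muscle and non-muscle cells alike tropomyosins lie along the actin filament and set which proteins may bind it. Calponins and transgelins are related actin-binding proteins that stabilise filaments, and phosphorylation of the regulatory light chain switches smooth muscle and non-muscle myosin on. Many of these genes are classic targets of serum response factor (SRF), which binds CArG boxes and works with myocardin-related cofactors that respond to free actin. In intestinal epithelium the same system forms stress fibres in spreading cells and the perijunctional ring and terminal web of polarised cells.

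The libraries held 17063826 to 40881682 gene counts. Pc and Sc libraries lay apart on the first principal component, with 71.7% of the variance, and the second, with 13.1%, set Z1flag Pc replicate 1 (73.9) against Z2flag Pc replicate 1 (-55.7). The epithelial markers EPCAM and CDH1 averaged 729.9 ± 77.9 and 1111 ± 119 CPM in Pc libraries, and 531 ± 61.6 and 687 ± 28.04 CPM in Sc libraries (SD, n = 4 libraries per state). Of 9 tested epithelial markers 5 rose in Pc relative to Sc cells, EPCAM and CDH1 among them, and 3 fell, namely KRT8, KRT18 and HNF4A (log2 fold changes -1.56, -1.94 and -1.22). Levels are CPM, read counts scaled to a common library total, after TMM correction for differences in RNA composition between libraries. In bulk RNA, fewer cells expressing a gene and less RNA of it per cell cannot be told apart.

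Of the 10 genes, 9 had enough counts to be fitted. In 7 of these 9 every Pc library lay below every Sc library, in 1, TPM2, every Pc library lay above, and in CNN2 the states overlapped. The number with Pc below Sc depends on the scaling: it was 6 with RLE scaling, where TAGLN2 also overlapped, and 5 with upper-quartile scaling, where TAGLN2 and TPM1 did. Over all 18240 genes tested, 51.2% had states that did not overlap, 26.1% lower and 25.1% higher in Pc, and nothing is read from the difference because the genes were chosen on it. The median log2 fold change (Pc minus Sc over both lines) was -1.73 for the 9 genes and -0.01 for all genes tested. By edgeR's test at an adjusted p under 0.05, 37.6% of all genes passed in Z2flag cells (18.3% higher, 19.3% lower in Pc) and 40.5% in Z1flag cells (21.3% higher, 19.1% lower).

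**Figure D1:**
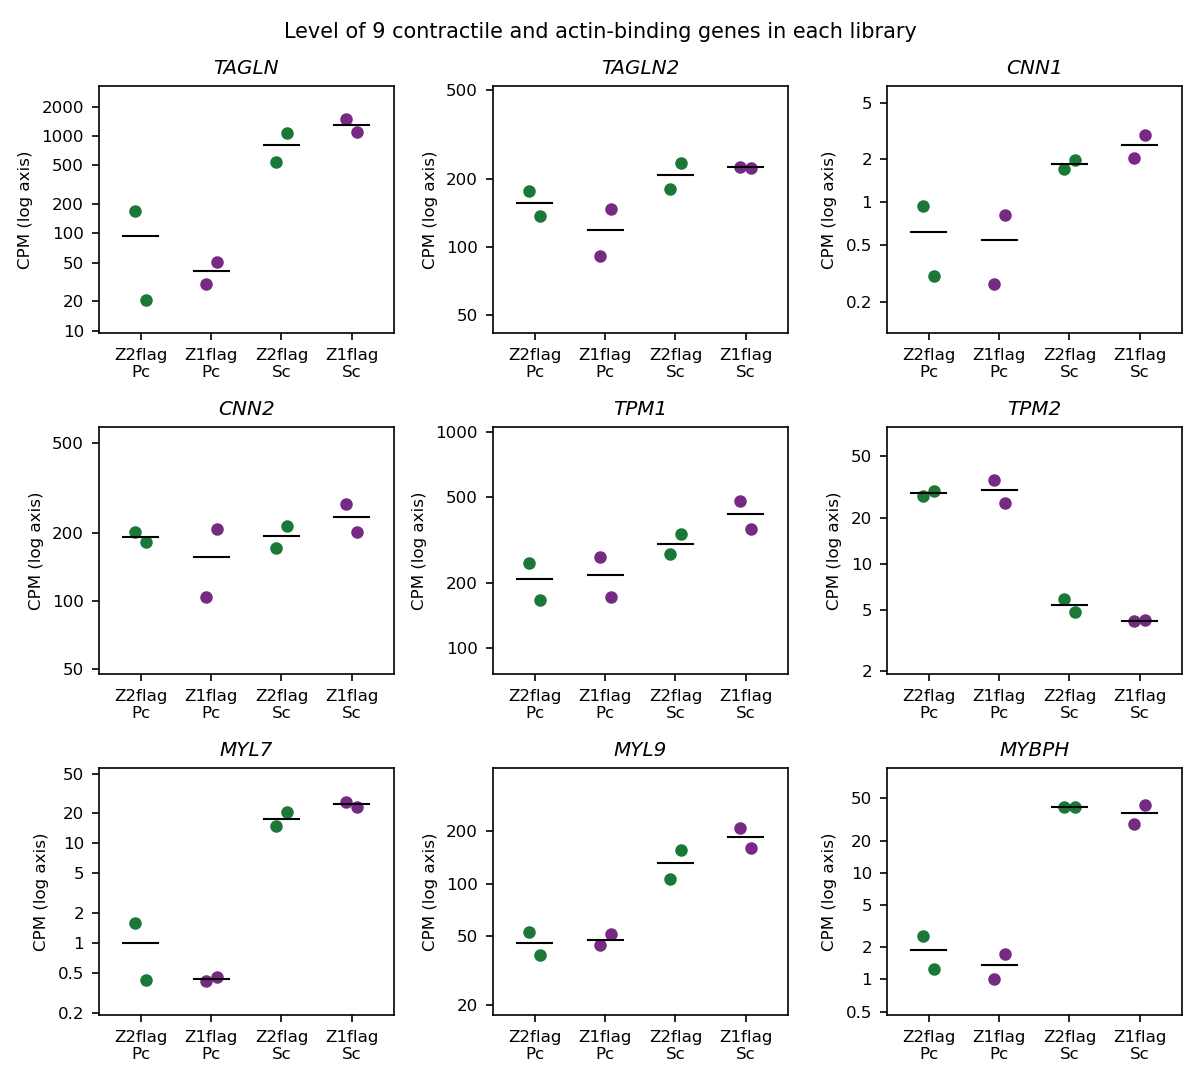
Level of the 9 fitted genes in each library, in TMM-scaled CPM on log axes that differ between panels. Points are single libraries of Z2flag (green) and Z1flag (purple) cells, and bars are means of 2 libraries. TAGLN lies at 20.8 to 169 CPM in the 4 Pc libraries and 540.3 to 1492 CPM in the 4 Sc libraries, and TPM2 runs the other way.

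TAGLN encodes transgelin (SM22), a protein of smooth muscle and of stress fibres. It had 169 and 20.8 CPM in Z2flag Pc, 30.1 and 51.4 CPM in Z1flag Pc, 540.3 and 1086 CPM in Z2flag Sc, and 1492 and 1113 CPM in Z1flag Sc libraries. Every Pc library was thus below every Sc library, while the pair of Z2flag Pc libraries differed 8.14-fold from each other. Means were 67.9 ± 68.8 CPM in Pc and 1058 ± 392 CPM in Sc libraries (SD, n = 4 libraries each), and the log2 fold change was -3.10 (SE 0.76) in Z2flag and -5.00 (SE 0.83) in Z1flag cells. Without Z2flag Pc replicate 1 the Z2flag value was -5.21, and without Z2flag Pc replicate 2 it was -2.18. TAGLN2, the widely expressed relative of TAGLN, was also lower in Pc cells but by far less. Its levels were 178 and 137 CPM in Z2flag Pc, 91.0 and 148 CPM in Z1flag Pc, 181 and 237 CPM in Z2flag Sc, and 227 and 226 CPM in Z1flag Sc libraries. The highest Pc library, Z2flag replicate 1, came within 3 CPM of the lowest Sc library, Z2flag replicate 1. With RLE scaling this Pc library was above that Sc library, at 184 against 176 CPM, and with upper-quartile scaling likewise, at 184 against 169.5 CPM. Its log2 fold change was -0.41 (SE 0.26) in Z2flag and -0.92 (SE 0.26) in Z1flag cells.

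The 2 transgelin genes changed places in level per length. In CPM too, TAGLN was below TAGLN2 in every Pc library and above it in every Sc library. TAGLN made up 8.79% to 37.6% of transgelin RNA in Pc libraries and 65.5% to 80.7% in Sc libraries, as CPM per kilobase of exon, and TAGLN2 took nearly all of the rest. TAGLN3 never exceeded 0.117% of the family.

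TAGLN lies on chromosome 11 at 117199321 to 117204782 on the plus strand (GRCh38), and 446 bases of its exons overlap exons of PCSK7, a proprotein convertase gene on the minus strand. The library kit marked strand, per the labels, but no source used here states the strand setting of the counting, so how reads of the shared stretch were assigned is not known. PCSK7 had 71.8 and 56.0 CPM in Z2flag Pc, 52.0 and 58.9 CPM in Z1flag Pc, 98.2 and 91.8 CPM in Z2flag Sc, and 82.6 and 87.6 CPM in Z1flag Sc libraries. It fell by 0.60 on the log2 scale in Pc relative to Sc cells (SE 0.14, edgeR adjusted p = 0.00396), a far smaller difference than that of TAGLN. The other annotated genes that share bases with TPM1, MYL9 and CNN2 lay on the opposite strand and had at most 0.361 CPM in any library.

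Among the calponins, CNN1, the smooth muscle form that binds actin and restrains myosin, was present at trace level. It had 0.937 and 0.301 CPM in Z2flag Pc, 0.265 and 0.817 CPM in Z1flag Pc, 1.71 and 1.97 CPM in Z2flag Sc, and 2.03 and 2.98 CPM in Z1flag Sc libraries. These values rest on 45 counts in the 4 Pc libraries and 265 counts in the 4 Sc libraries. The log2 fold change was -1.55 (SE 0.59) in Z2flag and -2.26 (SE 0.59) in Z1flag cells, and the Z2flag value was -2.51 without Z2flag Pc replicate 1 and -0.88 without Z2flag Pc replicate 2. The Z1flag value was -1.58 without Z1flag Pc replicate 1 and -3.23 without Z1flag Pc replicate 2. CNN2, the calponin of non-muscle cells, was the gene without a separation of states. It had 201 and 183 CPM in Z2flag Pc, 105 and 209 CPM in Z1flag Pc, 171 and 215 CPM in Z2flag Sc, and 267 and 201 CPM in Z1flag Sc libraries. Its log2 fold change was -0.01 (SE 0.30) in Z2flag and -0.58 (SE 0.30) in Z1flag cells, where it was -1.17 without Z1flag Pc replicate 2. CNN2 nevertheless made up more of the calponin RNA per length in Pc than in Sc libraries, 39.4% to 41.4% against 28.96% to 34.2%. CNN3 held 58.5% to 60.3% in Pc and 65.4% to 70.7% in Sc libraries. The log2 fold change of CNN3 over both lines was -0.86 (SE 0.21).

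The tropomyosin genes TPM1 and TPM2 ran in opposite directions. TPM1 had 249 and 168 CPM in Z2flag Pc, 265 and 173 CPM in Z1flag Pc, 273 and 336 CPM in Z2flag Sc, and 478 and 355 CPM in Z1flag Sc libraries. The states were separated narrowly, by the gap between Z1flag Pc replicate 1 and Z2flag Sc replicate 1, and with upper-quartile scaling they overlapped, at 297 and 257 CPM in replicate 1 of Z1flag and Z2flag Pc against 256 CPM in Z2flag Sc replicate 1. The log2 fold change was -0.55 (SE 0.28) in Z2flag and -0.93 (SE 0.28) in Z1flag cells. TPM2, beta-tropomyosin, was the 1 gene of the set that was higher in Pc cells. It had 27.5 and 29.9 CPM in Z2flag Pc, 35.2 and 24.8 CPM in Z1flag Pc, 5.94 and 4.90 CPM in Z2flag Sc, and 4.24 and 4.31 CPM in Z1flag Sc libraries. The replicates of a group differed at most 1.42-fold, in Z1flag Pc, and the Pc mean was 6.06 times the Sc mean. Its log2 fold change was 2.40 (SE 0.25) in Z2flag and 2.81 (SE 0.26) in Z1flag cells. TPM2 made up 6.92% to 14.3% of tropomyosin RNA per length in Pc and 0.801% to 1.497% in Sc libraries. TPM3 was the most abundant tropomyosin gene on this scale in every library. TPM3 and TPM4 were lower in Pc cells, with log2 fold changes over both lines of -0.72 (SE 0.16) and -0.76 (SE 0.24). The exon length used for every gene joins the exons of all its annotated isoforms. Levels per length are thus understated by amounts that may differ between genes, and shares within families depend on them. For TPM1 the joined length is 12876 bases.

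**Figure D2:**
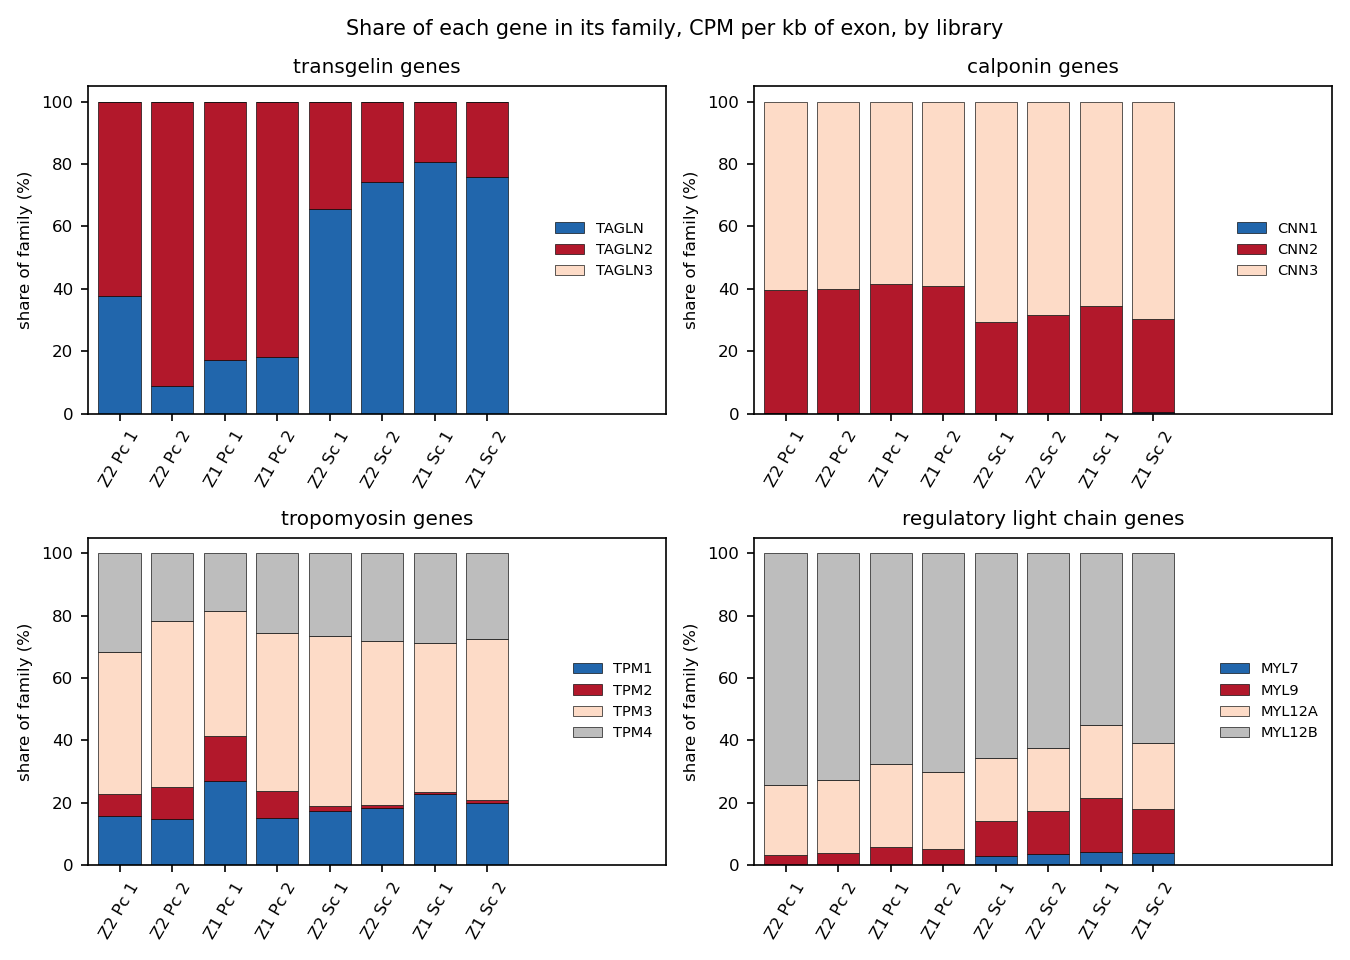
Share of each gene in the summed CPM per kilobase of exon of its family, in each library, with Pc libraries left of Sc libraries and Z2flag (Z2) left of Z1flag (Z1). TAGLN holds 8.79% to 37.6% of the transgelin bar in Pc and 65.5% to 80.7% in Sc libraries, and the TPM2 band is visible mainly in Pc libraries.

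Of the myosin regulatory light chains, MYL7 is the form of atrial heart muscle. It had 1.60 and 0.421 CPM in Z2flag Pc, 0.416 and 0.459 CPM in Z1flag Pc, 15.1 and 20.5 CPM in Z2flag Sc, and 26.0 and 23.4 CPM in Z1flag Sc libraries. Z2flag Pc replicate 1 stood apart from the other Pc libraries yet lay far below every Sc library. The log2 fold change was -4.11 (SE 0.46) in Z2flag and -5.81 (SE 0.50) in Z1flag cells, on 56 counts in Pc and 2551 counts in Sc libraries. The Z2flag value was -5.30 without Z2flag Pc replicate 1 and -3.38 without Z2flag Pc replicate 2. MYL9, a regulatory light chain of smooth muscle and non-muscle myosin II, had 52.7 and 38.8 CPM in Z2flag Pc, 44.5 and 51.1 CPM in Z1flag Pc, 106 and 156 CPM in Z2flag Sc, and 209 and 161 CPM in Z1flag Sc libraries. The lowest Sc library had about double the highest Pc library. Its log2 fold change was -1.52 (SE 0.25) in Z2flag and -1.95 (SE 0.26) in Z1flag cells. The partner genes MYL12A and MYL12B, which encode the main non-muscle light chains, made up most of the family RNA per length in all libraries. MYL9 had 3.14% to 5.57% of it in Pc and 11.1% to 17.3% in Sc libraries, and MYL7 had 0.0822% to 0.184% in Pc and 3.05% to 4.15% in Sc libraries. The summed level of the family was 394 ± 137 CPM per kilobase in Pc and 394 ± 38.6 CPM per kilobase in Sc libraries (SD, n = 4 libraries each). The Pc mean was raised by Z2flag Pc replicate 1, at 594 CPM per kilobase. The other Pc libraries had 283 to 351 and the Sc libraries 339 to 429 CPM per kilobase.

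MYBPH encodes myosin-binding protein H, known from skeletal muscle and the conduction system of the heart. It had 2.54 and 1.26 CPM in Z2flag Pc, 1.02 and 1.74 CPM in Z1flag Pc, 41.2 and 41.6 CPM in Z2flag Sc, and 28.8 and 43.7 CPM in Z1flag Sc libraries. Every Sc library exceeded every Pc library by more than 10-fold. The log2 fold change was -4.43 (SE 0.38) in Z2flag and -4.74 (SE 0.39) in Z1flag cells, the pair of lines differing by less than either SE.

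ACTA2, the alpha actin of smooth muscle and of myofibroblasts, was not detectable at this depth. It had 0 counts in 7 libraries and 1 count in Z1flag Sc replicate 1, where a count of 0 allows up to 0.0713 to 0.180 CPM depending on the library (3 counts, counting error only). No fold change is given for it. Its coding sequence resembles that of the other actin genes, so reads that fit several of them may not have been counted. Whether this lowered the count of ACTA2 was not tested. Its neighbours on chromosome 10, which are not actin genes, were also nearly without counts, as given under other observations.

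**Figure D3:**
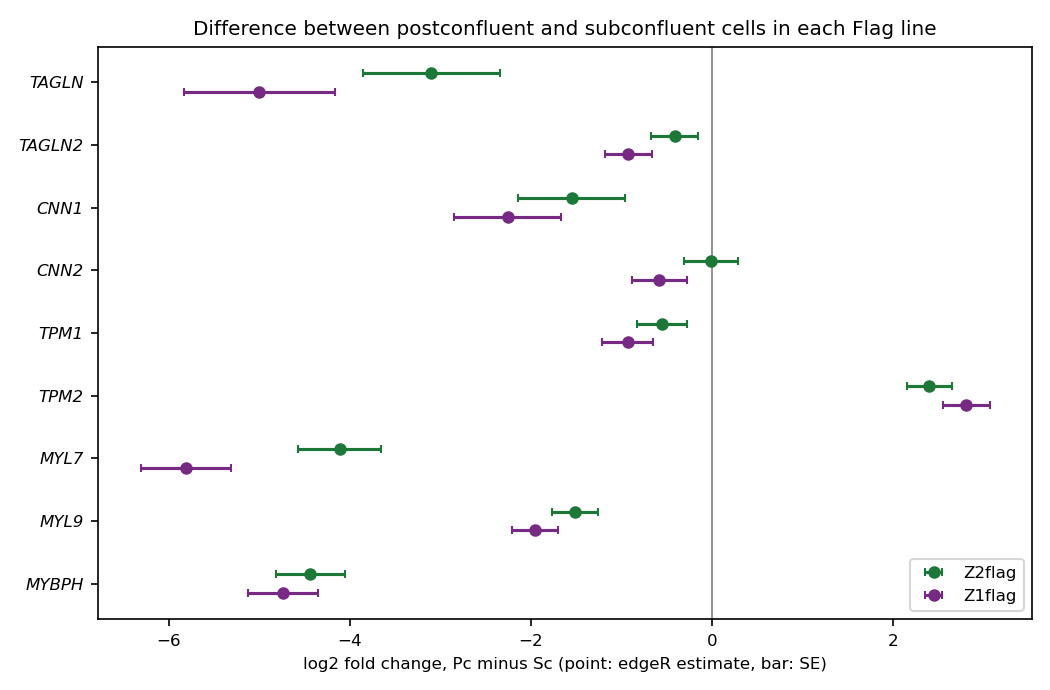
Log2 fold change of Pc relative to Sc cells for the 9 fitted genes, Z2flag (green) above Z1flag (purple), with bars of 1 SE from edgeR. TPM2 alone lies right of 0, at 2.40 and 2.81, and TAGLN, MYL7 and MYBPH lie farthest left, from -3.10 to -5.81.

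Ranked by mean level per length, the set looked different in the 2 states. The order between genes depends on the joined exon lengths. In Pc libraries TAGLN2 (55.7 ± 14.6 CPM per kilobase) and CNN2 (47.8 ± 13.1) came first. Their means lay within the spread between libraries, but TAGLN2 was above CNN2 in every Pc library. The gap was narrow in Z1flag Pc replicate 2, at 59.6 against 57.3. TAGLN (17.3 ± 17.6), MYL9 (16.6 ± 2.27) and TPM1 (16.6 ± 3.92) followed and could not be ordered. TPM2 averaged 9.05 ± 1.37 and was above TAGLN in 2 of the 4 Pc libraries, so this pair could not be ordered either. Without Z2flag Pc replicate 1 the means were 9.24 for TPM2 and 8.71 for TAGLN. The genes MYBPH, MYL7 and CNN1 were all below 1 CPM per kilobase. In Sc libraries TAGLN led with 270 ± 100 CPM per kilobase, ahead of TAGLN2 (87.5 ± 10.1), CNN2 (58.6 ± 11.0) and MYL9 (56.0 ± 15.0), the last 2 of which did not differ beyond their spread. TPM1 (27.99 ± 6.65), MYBPH (21.5 ± 3.77) and MYL7 (14.6 ± 3.22) came next, and TPM2 (1.49 ± 0.242) and CNN1 (0.752 ± 0.192) were near the bottom (SD, n = 4 libraries throughout).

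RefSeq promoter windows on GRCh38.p14, which span 250 bases before to 50 bases after a start site, were matched for 8 of the 10 genes, 12 windows in all. TAGLN and MYL9 had no window and were not searched. Printed here are the 150 bases before the outermost annotated start of the gene for the 2 low genes with the widest gap between states, MYL7 and MYBPH, for TPM2, which ran the other way, and for CNN2, whose states overlapped. Capitals mark a CArG box, the DNA element bound by SRF.

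MYL7, chr7:44141333-44141482, minus strand: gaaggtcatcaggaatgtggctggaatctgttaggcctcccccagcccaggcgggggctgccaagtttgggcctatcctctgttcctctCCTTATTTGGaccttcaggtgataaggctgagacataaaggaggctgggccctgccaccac
MYBPH, chr1:203175827-203175976, minus strand: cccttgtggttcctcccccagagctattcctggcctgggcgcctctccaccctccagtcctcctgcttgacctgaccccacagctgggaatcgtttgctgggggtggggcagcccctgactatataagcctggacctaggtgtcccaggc
TPM2, chr9:35690122-35690271, minus strand: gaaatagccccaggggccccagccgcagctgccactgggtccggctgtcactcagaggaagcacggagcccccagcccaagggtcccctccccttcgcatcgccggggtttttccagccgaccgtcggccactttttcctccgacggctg
CNN2, chr19:1026431-1026580, plus strand: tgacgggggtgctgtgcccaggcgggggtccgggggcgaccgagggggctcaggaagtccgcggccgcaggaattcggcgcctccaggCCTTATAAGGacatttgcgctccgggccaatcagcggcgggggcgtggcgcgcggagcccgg

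A CArG box stood in the windows of 2 of the 8 genes, MYL7, where its first base is at position -61 from the RefSeq start site, and CNN2, at -89 from the start site at 1026608. Of 35116 RefSeq windows, 407 (1.16%) hold one in their 250 upstream bases. MYL7 had one of the widest gaps between states, and CNN2 was the fitted gene whose states overlapped. A TATAAA or TATATA on either strand was found in the windows of MYBPH, first base at -30, and of ACTA2, at -29, and in 12.8% of all windows. These matches describe letters only and do not show binding. The CArG search was for a 10-base motif, so variants of it were not counted. A window without a match does not show that SRF does not bind.

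The lines were compared with each other in the same fit, a difference that was not used to choose the genes. In postconfluent cells 0 of the 9 genes passed in Z2flag minus Z1flag, and the same held in subconfluent cells and for the interaction, which asks whether the Pc minus Sc change differs between the lines. Over all 18240 genes percent called was 0 in each of the 3 comparisons by edgeR, and also by DESeq2 and limma voom. At unadjusted p under 0.05, 7.17% of all genes and 0 of the 9 stood out in Pc cells, 1.07% and 0 in Sc cells, and 4.95% and 1, MYL7, for the interaction. By DESeq2, 1 of the 9 genes did so in Pc cells, 0 in Sc cells and 1 for the interaction, beside 6.62%, 0.833% and 4.38% of all genes. By limma voom 0 did in all 3, beside 6.50%, 1.10% and 4.92% of all genes.

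The largest estimates in Pc cells and for the interaction belonged to TAGLN and MYL7. TAGLN had a Z2flag minus Z1flag difference of 1.22 (SE 0.72, edgeR adjusted p = 0.642) in Pc cells and -0.68 (SE 0.71, adjusted p = 1) in Sc cells, on the log2 scale. Without Z2flag Pc replicate 1 the difference in Pc cells was -0.94. MYL7 differed by 1.22 (SE 0.56, edgeR adjusted p = 0.638) in Pc and by -0.48 (SE 0.37, adjusted p = 1) in Sc cells, and its Pc value was -0.013 without the same library. TAGLN2 and CNN2 differed by 0.40 (SE 0.26) and 0.29 (SE 0.30) in Pc cells. Without Z1flag Pc replicate 2 these values were larger, at 0.85 and 0.93. In that fit the single Z1flag Pc library is taken to vary like the other groups, so only the sizes are given. The remaining 5 genes differed by -0.07 to 0.50 in Pc cells. In Sc cells MYL9 differed by -0.50 (SE 0.25, edgeR adjusted p = 1), and the other 6 genes by -0.45 to 0.34.

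The interaction was positive for 8 of the 9 genes and negative for TPM2, with a median of 0.51 against -0.07 for all genes. The share of all genes with a positive interaction is not given here. Most of the 9 genes vary together over the libraries, so they do not count as separate results. With all 8 libraries the estimated Pc minus Sc change was thus larger in size in Z1flag than in Z2flag cells for the 9 genes, and for none did the difference pass. It was 1.90 (SE 1.01, edgeR adjusted p = 0.799) for TAGLN and 1.70 (SE 0.67, adjusted p = 0.799) for MYL7. Without Z2flag Pc replicate 1 the interaction changed sign for 3 genes, to -0.22 for TAGLN, -0.22 for MYBPH and -0.27 for CNN1. Among the 4 Pc libraries that replicate had the highest level of 6 of the 9 genes, TAGLN, TAGLN2, CNN1, MYL7, MYL9 and MYBPH, while Z1flag Pc replicate 1 had the lowest level of 5 and Z2flag Pc replicate 2 of 3.

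**Figure D4:**
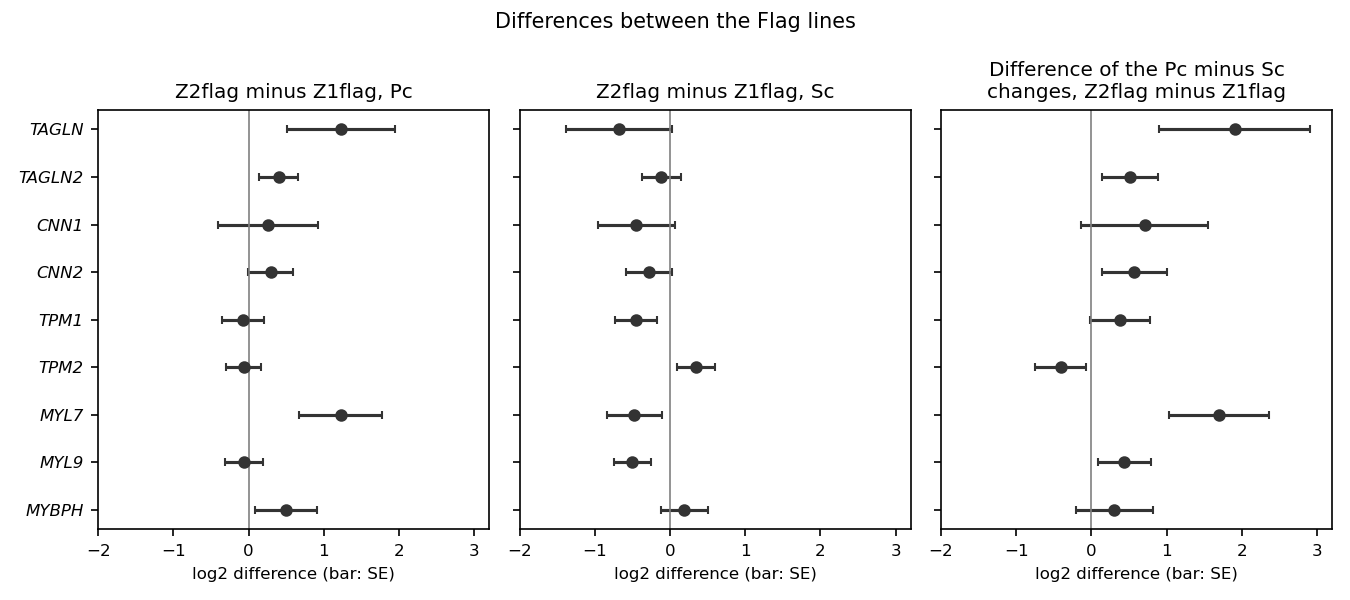
Z2flag minus Z1flag differences in Pc and in Sc cells, and the difference between the Pc minus Sc changes of the lines, in log2 units with bars of 1 SE from edgeR. No gene passed in any panel, and TAGLN (1.90) and MYL7 (1.70) lie farthest right in the third.

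Over the 8 libraries, log2 CPM of TAGLN correlated with that of MYL7 at r = 0.98, MYL9 at 0.97, CNN1 and MYBPH at 0.95, TAGLN2 at 0.89, TPM1 at 0.86, CNN2 at 0.60 and TPM2 at -0.95. These are descriptions, since the libraries share the split into 2 states. Of 11065 genes with a mean of at least 5 CPM, the 5 most like TAGLN were ENSG00000280143 (r = 0.994), the membrane-bound metalloproteinase gene MMP24 (0.993), MICAL2 (0.992), whose protein oxidises actin, the mitochondrial peptidase gene PITRM1 (0.992) and the centrosome gene CEP135 (0.992). ENSG00000280143 begins 184 bases beyond the end of TAGLN on the same strand and lies opposite PCSK7. It had 3.14 and 0.481 CPM in Z2flag Pc, 0.794 and 0.714 CPM in Z1flag Pc, 8.44 and 14.7 CPM in Z2flag Sc, and 22.5 and 13.9 CPM in Z1flag Sc libraries. Its highest Pc and highest Sc library were those of TAGLN. MICAL2 averaged 183 ± 61.1 CPM in Pc and 541 ± 71.1 CPM in Sc libraries, and it too was highest among Pc libraries in Z2flag replicate 1, at 271 CPM. Both genes were chosen by their correlation over these 8 libraries, so sharing the highest library with TAGLN is no separate finding.

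Around these genes, 161 others of the actomyosin system were followed in 6 lists, and 127 had enough counts. Of those, 33 rose, 49 fell and 45 did not pass in Pc relative to Sc cells over both lines (edgeR, adjusted p under 0.05), against 40 higher and 37 lower with upper-quartile scaling. With TMM, 55.4% of all genes passed, 27.8% higher and 27.5% lower. With upper-quartile scaling the median of all genes was 0.18 in place of -0.01, and 62.05% of the passing genes were higher, against 50.27% with TMM.

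The thin filament list had 6 genes that rose and 7 that fell among 17 tested (median log2 fold change 0.21). TNNT1, slow skeletal troponin T, rose by 2.56 (SE 0.23, edgeR adjusted p = 2.01e-05), with 19.6 ± 1.01 CPM in Pc and 3.33 ± 1.06 CPM in Sc libraries, and cardiac troponin I, TNNI3, rose by 3.16 (SE 0.35). CALD1, which encodes the actin-binding caldesmon, fell by 1.22 on the log2 scale (SE 0.18), with 91.8 ± 21.7 CPM in Pc and 214 ± 39.6 CPM in Sc libraries. In the thick filament list 5 rose and 4 fell among 16 (median 0.23). Of the 3 heavy chain genes of non-muscle myosin II, MYH10 fell by 1.25 on the log2 scale (SE 0.13) and MYH14 rose by 1.20 (SE 0.16). MYH9, the most abundant of them, fell by 0.86 on the log2 scale (SE 0.19), with 595 ± 155 CPM in Pc and 1078 ± 139 CPM in Sc libraries. MYH10 averaged 89.8 ± 6.15 CPM in Pc and 214 ± 6.55 CPM in Sc libraries, and MYH14 averaged 198 ± 31.8 CPM in Pc and 86.3 ± 9.44 CPM in Sc libraries. MYL6B, an essential light chain gene, rose by 0.94 (SE 0.18).

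In the list on light chain phosphorylation 9 genes rose and 9 fell of 25 (median 0.12). The kinase gene MYLK4 fell by 2.997 on the log2 scale (SE 0.28), with 1.20 ± 0.985 CPM in Pc and 7.43 ± 1.06 CPM in Sc libraries, while DAPK2, a calmodulin-regulated kinase gene, and RHOB, a small GTPase gene, rose by 2.36 (SE 0.26) and 1.98 (SE 0.23). SRF and its cofactors had 6 genes tested, of which 2 fell (median -0.46). The cofactor gene MRTFB fell by 0.67 on the log2 scale (SE 0.19, edgeR adjusted p = 0.0127) and SRF by 0.46 (SE 0.16, adjusted p = 0.0287), with 28.8 ± 4.49 CPM of SRF in Pc and 39.5 ± 2.60 CPM in Sc libraries. The SRF call was lost in 11 of 17 alternatives and that of MRTFB in 3, upper-quartile scaling among them for both genes, and leaving out single libraries moved the number of fallen genes between 0 and 4.

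Stress fibre and focal adhesion genes had 8 that rose and 9 that fell of 32 (median -0.24), and leaving out single libraries moved these between 4 and 11 and between 6 and 14. With upper-quartile scaling 11 were higher and 6 lower. SYNPO, whose product synaptopodin binds actin bundles, rose by 1.54 (SE 0.14). PARVA and TNS3, which encode parvin and tensin proteins that tie actin to integrins, had log2 fold changes of -2.27 (SE 0.23) and -1.25 (SE 0.14), and both fell. Actin turnover was the list with the most fallen genes: 5 rose and 18 fell of 31 (median -0.49), or 6 and 15 with upper-quartile scaling, and those that rose were 2 to 6 without single libraries. ARPC4, a subunit gene of the Arp2/3 nucleator, fell by 1.42 on the log2 scale (SE 0.13) and the cofilin gene CFL2 by 1.21 (SE 0.13). GSN, which encodes the filament-severing gelsolin, rose by 4.47 (SE 0.25, edgeR adjusted p = 2.84e-06), with 873 ± 309 CPM in Pc and 39.6 ± 9.05 CPM in Sc libraries.

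**Figure D5:**
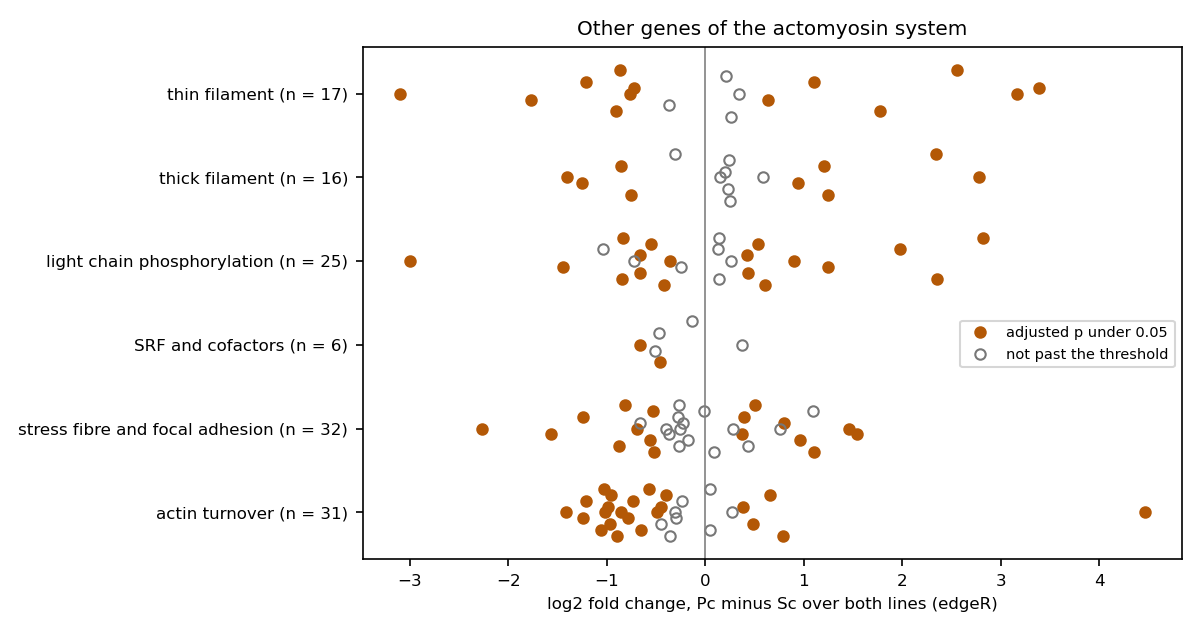
Log2 fold change of Pc relative to Sc cells over both lines for the tested genes of 6 lists around the described genes (the 10 genes themselves left out). Filled points passed edgeR's test after adjustment over all genes and open points did not. The rightmost point is GSN at 4.47.

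Markers of other contractile cells were read beside these results. The 8 smooth muscle markers summed to 0.663 to 1.82 CPM in Pc and 0.927 to 1.37 CPM in Sc libraries, and none reached a mean of 1 CPM. Of the 2 with enough counts DES rose and ACTG2 fell (log2 fold changes 3.25 and -3.10). They had only 65 and 85 counts over all libraries. The 11 striated muscle markers summed to 15.5 to 46.4 CPM in Pc and 29.2 to 55.9 CPM in Sc libraries, with ACTC1 and MYL2 at 0 throughout, and of the 4 with enough counts TNNT2, TNNI3 and MYL3 rose and NPPB fell. The 10 fibroblast markers summed to 72.2 to 86.9 CPM in Pc and 183 to 233 CPM in Sc libraries, in the direction of TAGLN. DCN, THY1 and FAP had only 31, 6 and 3 counts over all libraries, and PDGFRB did not pass. COL1A2 and POSTN were at 0 in all libraries, PDGFRA, LUM and COL3A1 fell (log2 fold changes -3.29, -1.94 and -2.80), and COL1A1 rose (1.56). Of 7 mesenchymal markers ZEB2 and TWIST1 were at 0, VIM had at most 0.366 CPM, and FN1 made up nearly all of the sum of 8689 to 15060 CPM in Pc and 5721 to 7459 CPM in Sc libraries. Of the 2 with enough counts FN1 rose and ZEB1 fell (log2 fold changes 0.805 and -1.11). ZEB1 averaged 0.895 CPM in Pc and 1.93 CPM in Sc libraries. The 10 intestinal epithelial markers, led by KRT8 and KRT18, summed to 4435 to 7789 CPM in Pc and 11720 to 13930 CPM in Sc libraries. The part of these markers in the results on the contractile genes was not tested.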

How the data were processed

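The authors deposited raw counts per Ensembl gene ID from 8 strand-specific, rRNA-depleted, paired-end libraries, per the labels. Per the submitters' processing notes, the tools were HTSeq, SAMtools and STAR 2.5.2b and the build hg38. No source used here states the annotation or strand setting of the counting. Reads on no feature (20.6% to 32.0% of reads listed) and other unassigned classes were left out.

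Of 58302 IDs, 58039 are in GENCODE release 29, which gave positions and exon lengths, and 57532 have a symbol. The edgeR filter (minimum count 10, minimum total 15) left 18240 genes. They were fitted with edgeR 4.0.16 in R 4.3.3 (TMM, robust quasi-likelihood, 4 group means, no replicate block, 4 residual degrees of freedom), with Benjamini-Hochberg adjustment over all genes and a threshold of 0.05. The SE is the log2 fold change divided by the root of F. The labels call the replicates duplicates and experiments, so p-values measure the spread between samples, which may be technical. The fit was also run on simulated counts. How often it would find a true difference between the lines, with 2 libraries per group, is not given here. Alternatives used DESeq2 1.42.0, limma 3.58.1 (voom), other scalings, filters and library sets, and 2 were added after the data were seen.

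The genes and lists were chosen with earlier results of these data known. Named beside the 10 genes were up to 3 genes per list with the smallest adjusted p and a mean of at least 1 CPM plus the first of the other direction, overlapping genes of at least 1 CPM, the 5 genes most like TAGLN (log2 CPM, prior count 2) and cell type markers. MICAL2 and ENSG00000280143 were singled out of those 5, and CNN3, TPM3, TPM4, MYH9, MYL12A and MYL12B added as family members, after values were seen. The list symbol MYLPF had no match. Figures were made with matplotlib 3.10.9.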

Additional observations from a re-analysis of the deposited data

Results flagged for a closer look

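Among the 18 sets of 4 libraries checked (9 genes in each state), 2 held a library far from its neighbours, where chance flags about 1 in 20 such sets. MYL7 had 1.60 CPM in Z2flag Pc replicate 1, against 0.416 to 0.459 CPM in the other Pc libraries. MYBPH had 28.8 CPM in Z1flag Sc replicate 1, against 41.2 to 43.7 CPM in the other Sc libraries.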

How the results depend on the processing

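For the 9 genes the sign of the Pc minus Sc log2 fold change over both lines stayed the same in the alternatives run, except for CNN2, which reached 0.062 without both libraries that had most reads on no feature. TAGLN ranged from -5.10 (without Z2flag Pc replicate 1) to -3.58 (without Z2flag Pc replicate 2). Differences between the lines changed sign more often, and the cause was not tested. When single libraries were left out, Z2flag minus Z1flag in Pc cells ranged over -0.94 to 2.10 for TAGLN, -0.013 to 1.91 for MYL7, -0.27 to 0.18 for MYL9, -0.066 to 0.96 for MYBPH, -0.35 to 0.29 for TPM1, -0.24 to 0.23 for TPM2, -0.75 to 1.29 for CNN1 and -0.10 to 0.93 for CNN2. The lowest values of TAGLN, MYL7, MYL9, MYBPH, TPM1 and CNN1 came without Z2flag Pc replicate 1. In Sc cells TAGLN2 ranged over -0.31 to 0.081 and MYBPH over -0.071 to 0.55. The interaction ranged over -0.22 to 2.81 for TAGLN, -0.22 to 0.80 for MYBPH and -0.27 to 1.77 for CNN1. Without both libraries that had most reads on no feature the lines differed in Pc cells by 0.28 for TPM1, 0.22 for TPM2, -0.37 for CNN1 and -0.11 for CNN2, in Sc cells by -0.093 for MYBPH, and the interaction of CNN2 was -0.039. Without the 2 libraries at the ends of the second principal component, an alternative chosen after seeing the data, the lines differed in Pc cells by -1.29 for TAGLN, -0.10 for TAGLN2, -0.11 for MYL7, -0.45 for MYBPH, 0.28 for TPM2, -1.42 for CNN1 and -0.18 for CNN2, and the interaction was -0.58 for TAGLN, -0.60 for MYBPH and -0.93 for CNN1.

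Leaving out single libraries gave 2894 to 9108 genes called in Z2flag cells (Pc minus Sc), 3757 to 8862 in Z1flag cells, 0 to 2252 for the lines in Pc cells and 0 to 190 for the interaction, the highest of these last 2 without Z1flag Pc replicate 2. With all libraries they were 6864, 7380, 0 and 0. Without both libraries that had most reads on no feature, 4865 were called in Z1flag cells. With no filter on low counts 221 genes were called between lines in Pc cells, 2 in Sc cells and 41 for the interaction. Of the lists, thin filament genes called higher were 2 with a filter of 5 CPM. SRF genes called higher were 1 with upper-quartile scaling, without both libraries that had most reads on no feature and without those at the ends of the second component, and 0 to 1 without single libraries. SRF genes called lower were 0 with upper-quartile scaling, 4 with no filter, 1 with the filter of 5 CPM and 0 to 4 without single libraries. Stress fibre genes called without single libraries were 4 to 11 higher and 6 to 14 lower, and actin turnover genes 2 to 6 higher.

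Same-numbered libraries shared no clear deviation (r from -0.18 to 0.178 over 18240 genes), so the replicate number marks no known pairing. With a replicate block 9954 genes were called in Pc minus Sc and 0 between lines or for the interaction. With the numbers crossed between the Pc groups, an alternative chosen after seeing the data, 0 genes were called between lines in Pc cells.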

Other observations

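The near absence of ACTA2 counts was shared by its neighbours on chromosome 10. Between RNLS and LIPA, GENCODE places 10 protein-coding genes, namely ACTA2, FAS, STAMBPL1, ANKRD22, CH25H and 5 lipase genes, and these had 4 counts in all over the 8 libraries, out of 205778323 gene counts. Of the 10 genes, 7 had no count in any library. On either side, RNLS had 4 to 19 counts per library and LIPA had 1389 to 6544 counts per library. On GRCh38, RNLS spans 88273864 to 88584530 and LIPA 89213569 to 89414557. The stretch was singled out after its counts were seen.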
